A study of Homo sapiens with 18 samples.

Results

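The nuclear genes for subunits of the oxidative phosphorylation complexes were followed through 18 RNA sequencing libraries of the MCF10 breast epithelial model. Members were taken by name: every protein-coding gene whose symbol is SDHA, SDHB, SDHC or SDHD, or begins with NDUFA, NDUFB, NDUFC, NDUFS, NDUFV, UQCR, COX4I, COX5, COX6, COX7, COX8, ATP5F1, ATP5M or ATP5P, leaving out the assembly factors, whose names carry AF. This gave 87 of the 35933 genes with values: 38 of complex I, 4 of complex II, 9 of complex III, 17 of complex IV and 19 of complex V, the ATP synthase. NDUFA4 and NDUFA4L2 were counted with complex IV, and 2 members, NDUFC2-KCTD14 and ATP5MF-PTCD1, are read-through genes whose exons overlap those of other members. COX6A2 and COX7B2, which the rule also names, were not analysed here.

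In the inner mitochondrial membrane, complexes I and II pass electrons from NADH and succinate to ubiquinone, complex III passes them on to cytochrome c, and complex IV hands them to oxygen. Complexes I, III and IV pump protons as they do so, and the ATP synthase uses the resulting gradient to make ATP. Most subunits are encoded in the nucleus and imported, while a small core is encoded in mitochondrial DNA, so the RNA of the nuclear subunits is made by a different polymerase in a different compartment from that of their partners. Some subunits exist as tissue-restricted or inducible paralogues, among them COX4I2, COX6B2, COX7A1 and NDUFA4L2.

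MCF10A cells are human breast epithelium that became immortal spontaneously and do not form tumors. A mutated HRas turned them into MCF10AT1, and repeated passage of MCF10AT1 as xenografts in mice gave MCF10CA1h. Each line was transfected with a Cas9 construct that carried either a control guide (genotype label Control Negative CRISPR, called control here) or a guide against exon 1 of METTL3, the main mRNA m6A methyltransferase (label METTL3 CRISPR knockdown, called METTL3 CRISPR here), sorted and selected clonally. Each of the 6 groups has 3 libraries, a to c. By the study's text 1 METTL3 CRISPR line of each cell line was set against its control, so no spread between clones is measured. The labels do not say whether libraries are separate cultures, and the p-values then measure only the spread between these libraries, which may be technical. All lines grew in the same medium with horse serum, insulin, hydrocortisone, cholera toxin and epidermal growth factor. The RNA type is labelled polyA, whereas the protocol describes stranded total RNA with ribosomal RNA depletion, and which applies was not settled here.

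METTL3 RNA was checked first. It had 752, 686 and 459 normalized counts in control MCF10A and 939, 981 and 510 with METTL3 CRISPR, with overlapping groups (adjusted p = 0.618 by limma). In MCF10AT1 it had 968, 1016 and 805 against 816, 752 and 902, again overlapping (adjusted p = 0.707). In MCF10CA1h it fell from 1022, 1102 and 1280 to 825, 745 and 843, a log2 fold change of -0.49 ± 0.12 (SE, adjusted p = 0.0234). RNA level does not measure the protein that a cut in exon 1 would remove. By Western blot the study reported less METTL3 protein in the knockdown lines of each cell line, to a moderate degree in MCF10CA1h. Its real-time PCR gave a smaller decrease of METTL3 RNA. Its m6A assay gave significantly lower levels in MCF10AT1 and MCF10CA1h and a decrease that was not significant in MCF10A. The libraries summed to between 21347352 and 31681834 normalized counts, and since the values had been normalized before deposit the number of reads behind a gene is unknown.

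The MCF10AT1 METTL3 CRISPR libraries stood apart from their epithelial label. Of 11 epithelial markers 7 were lower than in the MCF10AT1 control, with EPCAM at 3494 to 4291 in the control and 78.8 to 126 with METTL3 CRISPR, and CDH1 at 2105 to 6138 against 11.6 to 79.2. Others overlapped between the arms: KRT8 was at 14037 to 23432 against 9545 to 19882 and KRT18 at 18503 to 48394 against 13608 to 28075. ITGB4 was at 21514 to 51829 against 48088 to 167977, and TP63 at 111 to 745 against 411 to 749. The summed level of the 11 also overlapped, at 160047 to 234764 in the control and 103352 to 194357 with METTL3 CRISPR. Of 14 mesenchymal or fibroblast markers 11 were tested and 6 were higher, and their summed level was 4195 to 5453 in the control and 126281 to 216514 with METTL3 CRISPR. VIM was at 3055 to 4640 in the control and 57647 to 70635 with METTL3 CRISPR, and FN1 at 65.1 to 81.9 and 55947 to 134507. COL3A1, COL6A1, COL6A2 and THY1 were also among those high in these libraries, with COL6A1 at 41.1 to 77.0 in the control and 6809 to 8312 with METTL3 CRISPR, whereas COL1A2 and LUM were at or near 0 in both. By real-time PCR the study reported more N-cadherin, MMP2 and vimentin RNA in both MCF10AT1 knockdown lines, and less E-cadherin, though not in both. It described this as fitting a switch to a mesenchymal phenotype, and its vimentin Western blot followed the same trend. The part of the markers in the results of this group was not tested. Nor was it tested whether these libraries come from the MCF10AT1 line, so every value of this group is that of libraries labelled MCF10AT1 METTL3 CRISPR. Of the leukocyte markers, PTPRC and CD3E were at 0 in these 3 libraries and CD14 was at 1745 to 2342, against 517 to 1378 in the control. Of the endothelial markers, VWF and CDH5 were at or near 0 and PECAM1 was at 377 to 635, against 225 to 849. In a bulk library fewer cells of a type and less RNA per cell cannot be told apart.

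Per kilobase of canonical transcript, subunit RNAs spanned a wide range of levels. Which transcripts of a gene were expressed was not examined, so levels and ranks per kilobase depend on the length of that 1 transcript. The highest was ATP5F1B, the catalytic beta subunit of the ATP synthase head, with a mean of 21330 normalized counts per kilobase over the 18 libraries, followed by COX6B1 with 18509 and COX4I1 with 14946. Complex IV had the highest median, 5469 per kilobase over 14 members, and complex II the lowest, 1695 over its 4 members. Of the 87 members 82 had a mean of at least 10 normalized counts over all libraries and were tested. The 5 below this were COX4I2, COX7A1, COX8C, ATP5MGL and UQCRHL, which are paralogues or retrogene copies of abundant subunits. COX4I2 had a value above 0 in 2 libraries, 0.58 and 1.51 normalized counts, whereas COX4I1 had between 5905 and 24948. Subunit mRNAs were short: the median canonical transcript was 758 bases against 3320 for the coding genes tested, and 60.9% of members had transcripts of up to 1000 bases against 6.11% of those coding genes.

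The members rose and fell together from library to library. Expressed as the median deviation from each gene's own mean over the 18 libraries, on a log2 scale, the members stood at -0.26, -0.72 and -0.75 in control MCF10A and at -0.42, -0.58 and -0.44 in MCF10A METTL3 CRISPR. In control MCF10AT1 they stood at 0.19, 0.72 and -0.69, and in MCF10AT1 METTL3 CRISPR at 1.04, 0.71 and -0.04. In MCF10CA1h they stood at 0.30, 0.08 and 0.34 in the control and at 0.04, 0.11 and 0.23 with METTL3 CRISPR. The spread within control MCF10AT1 was thus as wide as the distance between the lines, and library c of that group was at the level of MCF10A: 8 of 82 members lay above their own mean there, against 62 and 75 in libraries a and b.

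**Figure D1:**
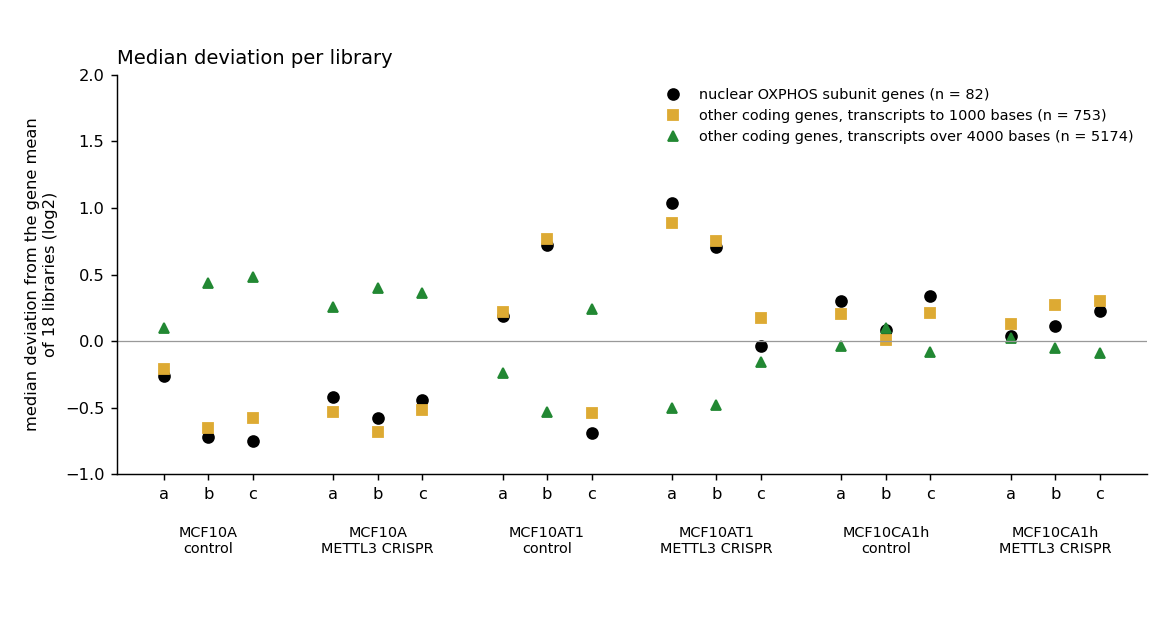
Median deviation of each library from the gene means of all 18 libraries (y axis, log2), by group and replicate letter (x axis), for 82 subunit genes (circles), 753 other coding genes with transcripts of up to 1000 bases (squares) and 5174 with transcripts of over 4000 bases (triangles). The subunit genes and the short transcripts move together, and in MCF10A and MCF10AT1 the long transcripts lie on the other side of 0 or, in METTL3 CRISPR c of MCF10AT1, on the same side as the subunit genes.

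Other genes with short transcripts moved with the subunits, as the plot of library medians shows. The 753 other coding genes with transcripts of up to 1000 bases stood at 0.22, 0.77 and -0.54 in control MCF10AT1 and at -0.21, -0.65 and -0.58 in control MCF10A. The 5174 coding genes with transcripts of over 4000 bases stood at -0.24, -0.53 and 0.24 and at 0.10, 0.44 and 0.48 in the same libraries. Among the members themselves, the 48 with transcripts of up to 1000 bases went from -0.80 to 1.32 within MCF10AT1, and the 18 with transcripts of over 2000 bases from -0.31 to 0.55. Counts are therefore given also after a smooth trend of each library on transcript length was removed.

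**Figure D2:**
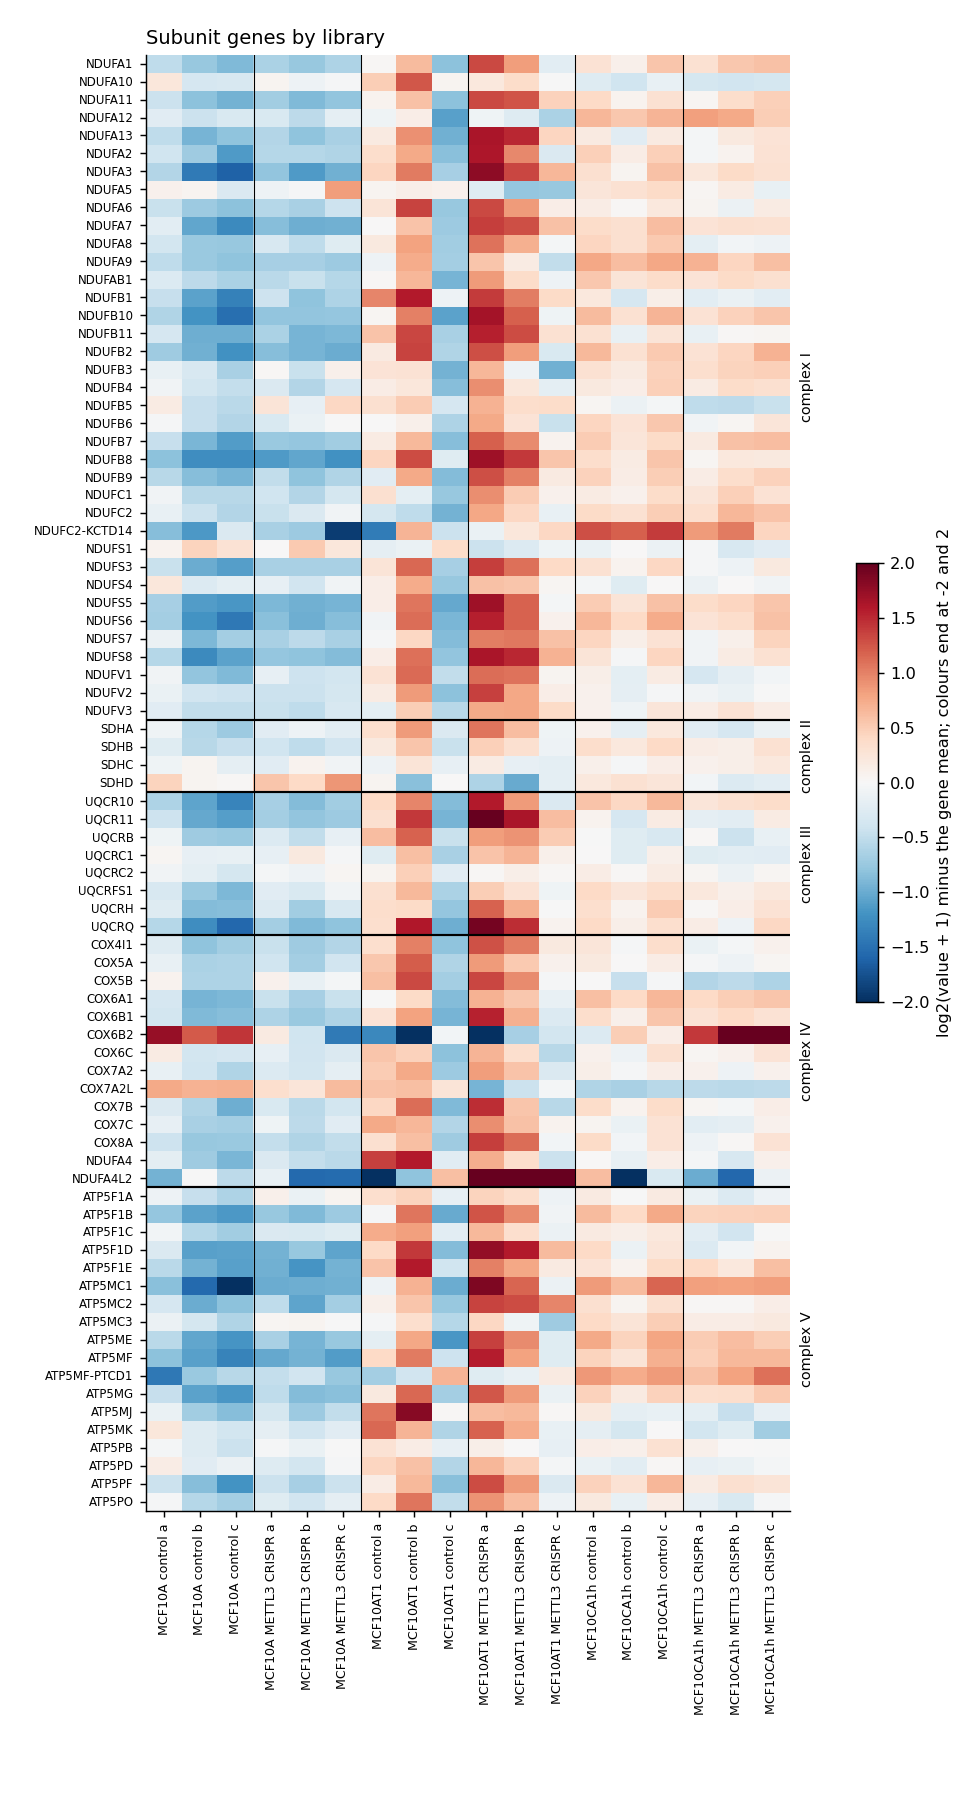
Log2(normalized count + 1) of 81 of the 82 tested subunit genes (rows, by complex) in the 18 libraries (columns), minus the mean of the gene, with colours ending at -2 and 2. Most rows share 1 pattern across columns, and SDHD, NDUFA5, COX6B2, COX7A2L and NDUFA4L2 depart from it.

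The first question was whether the 3 stages of the model differ in these genes without METTL3 CRISPR. Control MCF10CA1h had higher levels of many subunit RNAs than control MCF10A: of 82 members tested 33 were higher and 1 was lower, where 19.0% of all genes tested were higher and 18.8% lower (limma, adjusted p under 0.05). The median log2 fold change of members was 0.80, against -0.06 for all genes. In 62 of the 82 all MCF10CA1h libraries lay above all MCF10A libraries, which held for 31.4% of all genes, and in 3 all lay below, which held for 32.1%. The higher members comprised 19 of 38 in complex I, 1 of 4 in complex II, 3 of 8 in complex III, 1 of 14 in complex IV and 9 of 18 in complex V. With the length trend removed 41 were higher and 1 lower (all genes 22.4% and 19.9%), so the direction held, with a median of 0.64. In the same comparison 7 of 12 mesenchymal or fibroblast markers were higher and none lower, and of 11 epithelial markers 4 were higher and 4 lower, whose part in the result was not tested. Leaving out 1 library gave between 8 and 36 called members: 9 without MCF10A control b, 8 without c, 9 without MCF10CA1h control a, 19 without b and 8 without c. The shares of all genes called in these fits are not given here.

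Of the members called, ATP5MC1 rose the most. It is 1 of 3 genes that encode the same mature c subunit of the proton-driven rotor. It had 1321, 798 and 470 normalized counts in control MCF10A and 4235, 3666 and 5297 in control MCF10CA1h. The groups were far apart, with a log2 fold change of 2.46 ± 0.45 (SE, adjusted p = 0.00326). The other c subunit genes rose less, ATP5MC2 by 0.95 ± 0.32 (adjusted p = 0.0409) and ATP5MC3 by 0.74 ± 0.24 (adjusted p = 0.0376). Per kilobase, ATP5MC1 moved from the lowest of the 3 in control MCF10A, 1336 ± 664 (SD, n = 3) against 2298 ± 386 for ATP5MC3 and 5089 ± 1263 for ATP5MC2, to the middle in control MCF10CA1h, 6810 ± 1281 against 3806 ± 307 and 9649 ± 996. These ranks rest on canonical lengths of 646 bases for ATP5MC1 and 2587 for ATP5MC3.

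Further rises were found in complexes V, I and III. ATP5F1B rose from 19048, 15395 and 14658 to 50365, 42553 and 54688 normalized counts (log2 fold change 1.59 ± 0.43, adjusted p = 0.0168). ATP5MF, which encodes the f subunit of the membrane part, rose by 1.56 ± 0.33 (adjusted p = 0.00619) and ATP5ME, the e subunit beside it, by 1.59 ± 0.41 (adjusted p = 0.0148). These 3 did not overlap between the lines. NDUFS6, an accessory subunit of complex I needed for its late assembly, rose by 1.70 ± 0.44, NDUFB10, a membrane-arm accessory subunit, by 1.64 ± 0.45, and NDUFA3 by 1.52 ± 0.42 (adjusted p = 0.0139, 0.0190 and 0.0189). UQCR10, a small subunit of complex III, rose by 1.55 ± 0.40 (adjusted p = 0.0153). ATP5F1B, ATP5ME, NDUFB10, NDUFA3 and UQCR10 each lost the call without MCF10A control b, MCF10A control c, MCF10CA1h control a or MCF10CA1h control c. NDUFS6 lost it without MCF10A control c or MCF10CA1h control c, whereas ATP5MF kept it whichever single library was left out. The read-through genes NDUFC2-KCTD14 (2.06 ± 0.48) and ATP5MF-PTCD1 (1.72 ± 0.37) also passed the test, but the pseudo-alignment has to share reads between them and NDUFC2 or ATP5MF, so these values are uncertain.

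The only member called lower was COX7A2L, also known as SCAFI or COX7RP, which joins complex III to complex IV in supercomplexes. It had 5288, 5035 and 5068 normalized counts in control MCF10A and 2053, 1977 and 2120 in control MCF10CA1h. The libraries of each group lay close together and far from the other group, with a log2 fold change of -1.32 ± 0.16 (adjusted p = 0.00048). Control MCF10AT1 held 4625, 4699 and 3709, so COX7A2L was also lower in MCF10CA1h than in MCF10AT1 (-1.08 ± 0.16, adjusted p = 0.00197), and a difference between MCF10AT1 and MCF10A was not called (-0.25 ± 0.16, adjusted p = 0.251). Its paralogue COX7A2, a subunit of complex IV itself, gave 0.46 ± 0.34 in MCF10CA1h against MCF10A (adjusted p = 0.309). COX7A2L lies at chr2:42333546-42425088 on the minus strand of GRCh38, and its canonical transcript is 2282 bases long, so it is not among the short transcripts.

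**Figure D3:**
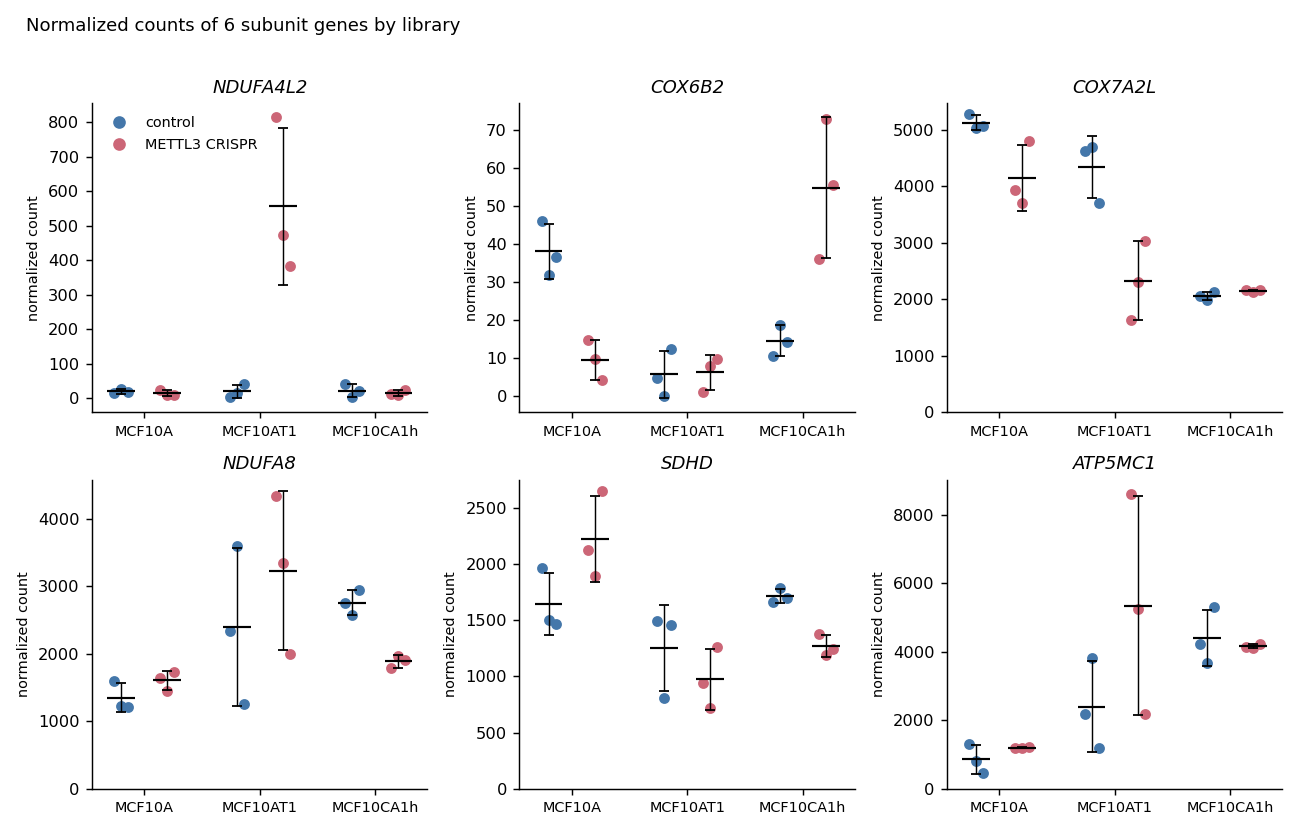
Normalized counts (y axis, linear) of 6 subunit genes in each library, in controls and METTL3 CRISPR of the 3 lines (x axis), with horizontal bars for the group mean and error bars for the SD (n = 3). NDUFA4L2 is high in MCF10AT1 METTL3 CRISPR alone, COX7A2L is near 2000 in both MCF10CA1h groups, and NDUFA8 and SDHD are lower with METTL3 CRISPR in MCF10CA1h with no overlap.

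Control MCF10AT1 against control MCF10A gave 10 members higher and 1 lower of 82, below the share among all genes, of which 13.3% were higher and 14.7% lower, while the median log2 fold change of members was 0.74. The higher members were NDUFB8, NDUFB1, NDUFB2 and NDUFA3 of complex I, NDUFA4 of complex IV, and ATP5MF, ATP5MJ, ATP5F1E, ATP5MC1 and ATP5F1C of the ATP synthase. NDUFB8, a membrane-arm subunit whose protein is often used as a gauge of complex I assembly, had 1565, 1156 and 1156 normalized counts in control MCF10A and 3712, 6800 and 2316 in control MCF10AT1 (log2 fold change 1.60 ± 0.34, adjusted p = 0.0114). The groups did not overlap, but the MCF10AT1 values differed among themselves by more than 2000. NDUFA4, a subunit of complex IV despite its name, had 3725, 2609 and 2279 against 11114, 12920 and 3658 (1.52 ± 0.42, adjusted p = 0.0276), and library c of MCF10AT1 fell inside the MCF10A range.

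This comparison turned on library c of control MCF10AT1. Without it 65 members were higher and 2 lower of 82, at a background of 24.9% and 27.2% of all genes, and these held the 11 called with all libraries. Without MCF10AT1 control a the count was 1 higher, without b 4 higher and 1 lower, and without MCF10A control b or c it was 1 higher each. For these last fits the shares of all genes called are not given here. With the length trend removed 9 were higher and 5 lower (all genes 15.1% and 14.9%), with a median of 0.20. In 6 members (7.32%) all MCF10AT1 libraries lay above all MCF10A libraries, which held for 18.3% of all genes, and in 2 all lay below, which held for 19.3%. Of 11 epithelial markers 3 were higher and 7 lower in this comparison, and of 12 mesenchymal or fibroblast markers 4 were lower, whose part in the result was not tested. Of the 10 higher here 5 were also among the 33 higher in MCF10CA1h against MCF10A, comparisons that share the MCF10A libraries.

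COX6B2, the testis form of a complex IV subunit that faces the intermembrane space, was the member called lower in control MCF10AT1. It had 46.0, 31.8 and 36.5 normalized counts in control MCF10A and 4.71, 0 and 12.4 in control MCF10AT1, with no overlap (-3.19 ± 0.82, adjusted p = 0.0216). This is a low level: per kilobase COX6B2 had 24.3 ± 4.62 (SD, n = 3) in control MCF10A, whereas the common form COX6B1 had 10271 ± 2178. COX6B1 was not called in this comparison, at 0.75 ± 0.39 (adjusted p = 0.155). The COX6B2 call was lost without MCF10A control b, MCF10A control c or MCF10AT1 control a.

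Control MCF10CA1h against control MCF10AT1 gave 3 members higher and 1 lower of 82, where 11.0% of all genes were higher and 10.8% lower. The lower one was COX7A2L, given above. NDUFC2, an accessory subunit of the complex I membrane arm, had 1021, 915 and 675 normalized counts in control MCF10AT1 and 1688, 1608 and 1822 in control MCF10CA1h, with no overlap (0.99 ± 0.21, adjusted p = 0.0104). NDUFA12, an accessory subunit of the matrix arm, had 1268, 1483 and 635 against 2145, 1972 and 2156 (0.98 ± 0.29, adjusted p = 0.0380). The third was the read-through NDUFC2-KCTD14 (1.67 ± 0.48, adjusted p = 0.0342). With the length trend removed 29 members were higher and 2 lower (all genes 15.3% and 13.1%). Without library c of control MCF10AT1 5 were higher and 14 lower, and the median log2 fold change went from 0.14 to -0.17. The count of called members was 12 without MCF10AT1 control b, 2 without MCF10AT1 control a, MCF10CA1h control a or MCF10CA1h control b, and 1 without MCF10CA1h control c. The shares of all genes called in these leave-one-out fits are not given here. In control MCF10AT1 against control MCF10A, leaving out library c moved that share from 13.3% higher and 14.7% lower to 24.9% and 27.2%. COX7A2L was called lower whichever single library was left out. In 9 members all MCF10CA1h libraries lay above all MCF10AT1 libraries, which held for 21.3% of all genes, and in 2 all lay below, which held for 19.7%.

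**Figure D4:**
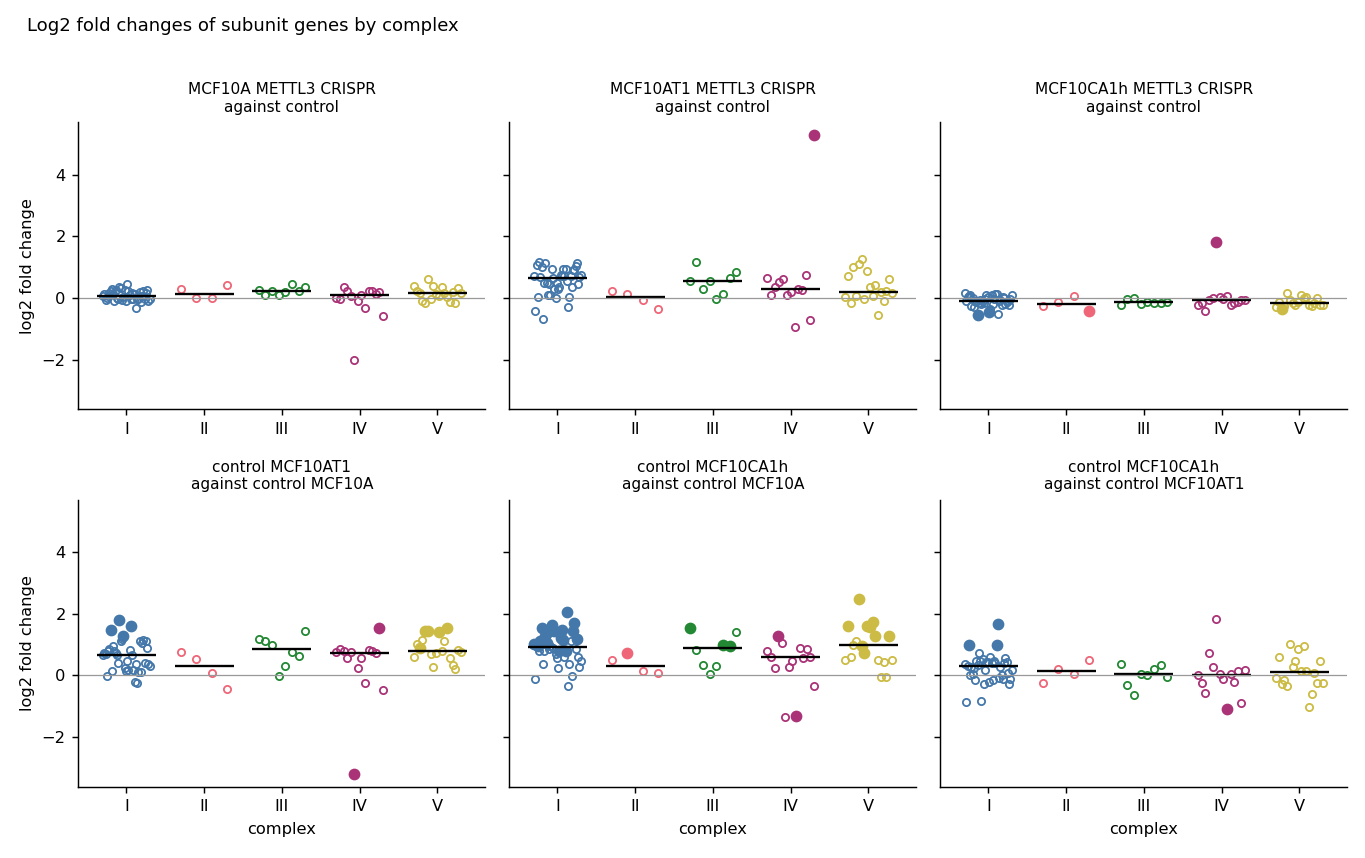
Log2 fold changes (y axis) of the tested subunit genes by complex (x axis) in the 3 METTL3 CRISPR comparisons and the 3 comparisons of control lines. Filled points have an adjusted p under 0.05, open points do not, and bars mark medians; most points lie above 0 in MCF10AT1 and MCF10CA1h controls against MCF10A, and slightly below 0 for METTL3 CRISPR in MCF10CA1h.

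The second question was what METTL3 CRISPR changed within each line. In MCF10A no member was called of 82 tested, where 1.16% of all genes were higher and 1.49% lower. An unadjusted p under 0.05 was found for 4 of the 82 members and for 2839 of 15416 genes. The median log2 fold change of members was 0.12, with single values between -2.02 and 0.60, and with the length trend removed no member was called either. The 5 members with the smallest p were COX6B2, UQCRFS1, ATP5MC3, SDHD and ATP5F1A. COX6B2 had 46.0, 31.8 and 36.5 normalized counts in the control and 14.8, 9.63 and 4.22 with METTL3 CRISPR, with no overlap (-2.02 ± 0.50, adjusted p = 0.0788). Libraries of the same letter deviated together in this line, and with the letter as a block COX6B2 was called (adjusted p = 0.0420) as the only member, where 7.60% of all genes were called. UQCRFS1, the Rieske iron-sulfur protein of complex III, had 2748, 2044 and 1849 against 2936, 2780 and 3275, with no overlap (0.45 ± 0.18, adjusted p = 0.223). ATP5F1A, the alpha subunit of the ATP synthase head, gave 0.40 ± 0.18 (adjusted p = 0.272), ATP5MC3 0.39 ± 0.16 (adjusted p = 0.239) and SDHD 0.43 ± 0.19 (adjusted p = 0.262). Without MCF10A control a 4 members were called, all higher, and the share of all genes called in that fit is not given here.

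In MCF10AT1 the member called was NDUFA4L2, the inducible paralogue of NDUFA4 that is known as a target of hypoxia-inducible factor. It had 3.05, 14.5 and 40.3 normalized counts in the control and 814, 472 and 383 with METTL3 CRISPR. The groups were far apart, with a log2 fold change of 5.27 ± 0.80 (adjusted p = 0.00364) on the scale of log2 of the value plus 1. In the other lines NDUFA4L2 stayed between 2.91 and 40.9 in every library. Per kilobase, MCF10AT1 METTL3 CRISPR had 590 ± 241 (SD, n = 3) normalized counts of NDUFA4L2 and 2576 ± 961 of NDUFA4, where the MCF10AT1 control had 20.4 ± 20.2 and 4536 ± 2413. NDUFA4 itself gave -0.70 ± 0.52 (adjusted p = 0.427), and with the replicate letter as a block and the length trend removed it was called lower (-0.83 ± 0.22, adjusted p = 0.0261). NDUFA4L2 lies at chr12:57234903-57240715 on the minus strand of GRCh38. The mesenchymal and epithelial markers given above moved in the same libraries, and their part in this rise was not tested.

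This made 1 member higher and 0 lower of 81 tested, where 7.07% of all genes were higher and 5.96% lower. An unadjusted p under 0.05 was found for 9 of the 81 members and for 4425 of 16050 genes. The other members with the smallest p were ATP5MC2, COX7A2L, NDUFA7 and NDUFC2. ATP5MC2 had 5528, 7602 and 3053 normalized counts in the control and 13191, 12762 and 10182 with METTL3 CRISPR, with no overlap (1.25 ± 0.36, adjusted p = 0.0599). COX7A2L had 4625, 4699 and 3709 against 1634, 2310 and 3039, again with no overlap (-0.94 ± 0.30, adjusted p = 0.0793). NDUFA7, an accessory subunit of the complex I matrix arm, had 1044, 1554 and 633 against 2720, 2554 and 1575, and NDUFC2 gave 0.94 ± 0.32 (adjusted p = 0.0980).

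Libraries of the same letter deviated together in MCF10AT1, library c of both arms being low for these genes. This rested mainly on letter c, since over all genes control b correlated with METTL3 CRISPR a (0.251) nearly as with b (0.289). With the letter as a block 19 members were higher and 1 lower of 81 (all genes 13.0% and 11.6%). The higher ones were 12 of complex I, 1 of complex III, 2 of complex IV and 4 of complex V, with none of complex II. They held NDUFS7 (1.04 ± 0.26, adjusted p = 0.0118) and NDUFS8 (1.13 ± 0.28, adjusted p = 0.0114), which carry iron-sulfur clusters on the path of electrons to ubiquinone, NDUFA13 (1.15 ± 0.26), ATP5MC2 (1.25 ± 0.27, adjusted p = 0.00555) and ATP5MC1 (1.10 ± 0.30, adjusted p = 0.0184). COX7A2L was the lower one (-0.94 ± 0.28, adjusted p = 0.0274). With the length trend removed as well, 10 were higher and 3, COX7A2L, ATP5MJ and NDUFA4, were lower (all genes 12.5% and 11.6%). Without the block but with that trend removed, 4 were higher and 2 lower (all genes 8.78% and 8.09%). Without MCF10AT1 control b 5 members were called higher with no block, a count given here without the share of all genes. The median of all tested members, 0.45 with the 6 libraries, was 0.81 without that library and 0.05 without control c.

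In MCF10CA1h few members were called, and the share called lower was that of all genes. Of 82 members tested 4 were lower and 1 was higher with METTL3 CRISPR, where 4.85% of all genes were lower and 7.91% higher. An unadjusted p under 0.05 was found for 13 of the 82 members and for 4230 of 15127 genes. The median log2 fold change of members was -0.12, and 60 of the 82 had a negative value, as had 7850 of 15127 genes. In 13 members (15.9%) all METTL3 CRISPR libraries lay below all controls, which held for 15.3% of all genes. NDUFA8, an accessory subunit on the intermembrane side of complex I, had 2757, 2573 and 2941 normalized counts in the control and 1785, 1966 and 1910 with METTL3 CRISPR. The groups did not overlap, and the log2 fold change was -0.55 ± 0.10 (adjusted p = 0.00496). NDUFB5, of the complex I membrane arm, had 1368, 1219 and 1292 against 934, 921 and 968 (-0.46 ± 0.10, adjusted p = 0.0148). SDHD, which anchors complex II in the membrane, had 1664, 1786 and 1696 against 1381, 1187 and 1244 (-0.43 ± 0.10, adjusted p = 0.0191). ATP5F1C, the gamma subunit that forms the central stalk of the ATP synthase, had 5827, 5572 and 5972 against 4444, 3950 and 5112 (-0.37 ± 0.11, adjusted p = 0.0449). None of these 4 overlapped between the arms.

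The higher member was COX6B2, with 10.6, 18.7 and 14.3 normalized counts in the control and 36.1, 73.1 and 55.7 with METTL3 CRISPR, with no overlap (1.82 ± 0.38, adjusted p = 0.0112). It thus reached the level of control MCF10A and remained far below COX6B1 per kilobase. NDUFA8 was called whichever single library was left out, whereas ATP5F1C and SDHD each lost the call without any of 5 of the 6 libraries, ATP5F1C keeping it only without METTL3 CRISPR c and SDHD only without METTL3 CRISPR a. NDUFB5 lost it without control a or METTL3 CRISPR b, and COX6B2 without METTL3 CRISPR b. Leaving out MCF10CA1h control a, control c or METTL3 CRISPR b took the count of called members to 2, 3 and 1, again without the share of all genes in those fits. Fitted together with the other lines, whose libraries spread more, no member was called in MCF10CA1h. With the length trend removed 8 were lower and 1 was higher (all genes 5.86% and 8.90%). In the same libraries 5 of 11 epithelial markers were higher and none lower, with a summed level of 392778 to 420740 in the control and 569862 to 646707 with METTL3 CRISPR. Of 12 mesenchymal or fibroblast markers 3 were higher and 1 was lower, with a summed level of 29128 to 34288 and 43272 to 54443. The part of these markers in the results was not tested.

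The promoters of 3 of the 4 members lower in MCF10CA1h are shown because they share a motif, and that of NDUFB5 was not analysed here. The calls of SDHD and ATP5F1C were lost in most of the fits that left out a single library, as given above. Of the 87 members 68 had at least 1 promoter in the RefSeq table (GRCh38.p14, 250 bases before to 50 after the start). The 8-base core of the motif of NRF1, a factor known for driving respiratory chain genes, GCGCATGC on either strand, was in 14 of these 68 genes (20.6%) and in 5.30% of 13728 coding genes. CCGGAAG, the core bound by ETS factors such as GABP, was in 30.9% of the members and 18.3% of the coding genes, and AAGATGG, a core of YY1 sites, in 26.5% and 8.30%. The core of NRF1 reads almost alike on both strands, so a full site of both half-sites counts once here, and no match overlapped one of another motif in the sequences shown. The promoters of NDUFA8 (chr9:122159730-122160029, minus strand), SDHD (chr11:112086623-112086922, plus strand) and ATP5F1C (chr10:7787927-7788226, plus strand) follow, written 5′ to 3′ on the strand of the gene, with matches to the 3 motifs in capitals.
NDUFA8: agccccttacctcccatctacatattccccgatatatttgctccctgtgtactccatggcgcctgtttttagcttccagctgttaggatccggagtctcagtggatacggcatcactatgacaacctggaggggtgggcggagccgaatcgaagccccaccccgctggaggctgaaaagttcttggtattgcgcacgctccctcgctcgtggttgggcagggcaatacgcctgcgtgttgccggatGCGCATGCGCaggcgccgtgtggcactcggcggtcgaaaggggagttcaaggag
SDHD: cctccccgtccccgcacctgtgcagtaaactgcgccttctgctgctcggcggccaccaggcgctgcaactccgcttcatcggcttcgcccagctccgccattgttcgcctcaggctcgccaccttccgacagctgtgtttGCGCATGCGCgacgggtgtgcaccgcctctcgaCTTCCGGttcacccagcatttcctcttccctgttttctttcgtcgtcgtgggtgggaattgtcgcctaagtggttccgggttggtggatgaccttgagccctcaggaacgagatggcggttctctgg
ATP5F1C: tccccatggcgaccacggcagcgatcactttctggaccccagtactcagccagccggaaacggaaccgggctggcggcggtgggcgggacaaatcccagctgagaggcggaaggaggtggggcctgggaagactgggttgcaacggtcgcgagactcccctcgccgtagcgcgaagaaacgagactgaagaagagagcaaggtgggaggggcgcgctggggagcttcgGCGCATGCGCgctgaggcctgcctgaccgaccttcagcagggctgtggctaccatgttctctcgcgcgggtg

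In all 3 the capitals show the NRF1 core on both strands, in 1 run, and in SDHD also the ETS core on the opposite strand. These are matches of letters and not measured binding. The motif was looked at after the 3 genes were known. Other members with the same core, such as SDHB (-0.13 ± 0.10, adjusted p = 0.407) and NDUFS7 (-0.12 ± 0.14, adjusted p = 0.642), were not called in MCF10CA1h, and no test compared members with and without it. NRF1 RNA itself had 474, 467 and 475 normalized counts in control MCF10CA1h and 343, 415 and 372 with METTL3 CRISPR, which was not called (-0.33 ± 0.13, adjusted p = 0.124).

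Complex II, the smallest, shows how its 4 members varied. SDHA, the flavoprotein, and SDHB, the iron-sulfur protein, followed the common pattern: SDHB had 2802, 2257 and 2386 normalized counts in control MCF10A and 4229, 3813 and 4361 in control MCF10CA1h (0.74 ± 0.25, adjusted p = 0.0398). SDHC, an anchor subunit, stayed between 2023 and 2846 in the 18 libraries and was called in no comparison. SDHD, the other anchor, went against the pattern in MCF10AT1, where library b of the control, the highest for most members, held the least, 809 against 1494 and 1454. The RNAs of partners within complex II therefore did not move in step. SDHA had the largest share of related pseudogene copies of any member, 8.22% of the summed value of gene and copies, so a part of its reads can be assigned to either.

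The core subunits of complexes I and III included several that were not called in MCF10CA1h against MCF10A. NDUFS1, the large iron-sulfur subunit, gave -0.35 ± 0.20 (adjusted p = 0.186) and NDUFV1, which binds NADH, 0.61 ± 0.38 (adjusted p = 0.230). NDUFS8, with 1.19 ± 0.41 (adjusted p = 0.0457), was called and NDUFS7, with 0.84 ± 0.33 (adjusted p = 0.0685), was not. UQCRC1 and UQCRC2, the large core proteins of complex III, gave 0.05 ± 0.29 (adjusted p = 0.904) and 0.31 ± 0.20 (adjusted p = 0.244), against 0.98 ± 0.31 (adjusted p = 0.0307) for UQCRFS1. Whether core and accessory subunits differ was not tested.

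The third question was whether the response to METTL3 CRISPR differed between lines, as tested by interaction terms in a fit of the 18 libraries. Between MCF10AT1 and MCF10A 3 of 82 members were called, where 21.6% of all genes were. The response was stronger in MCF10AT1 for NDUFA4L2 (difference of log2 fold changes 5.85 ± 1.18, adjusted p = 0.00186) and ATP5MC2 (1.28 ± 0.37, adjusted p = 0.0210) and lower for NDUFA5, a complex I accessory subunit (-0.96 ± 0.32, adjusted p = 0.0413). NDUFA5 lost the call with the replicate letter as a block (adjusted p = 0.0558) and with the length trend removed (adjusted p = 0.173). Between MCF10CA1h and MCF10AT1 5 were called, where 18.2% of all genes were: NDUFA4L2 (-5.34 ± 1.18, adjusted p = 0.00441), ATP5MC2 (-1.42 ± 0.37, adjusted p = 0.0141), COX7A2L (1.01 ± 0.26, adjusted p = 0.0134), NDUFA7 (-1.27 ± 0.43, adjusted p = 0.0489) and NDUFS7 (-1.16 ± 0.39, adjusted p = 0.0469). Between MCF10CA1h and MCF10A no member was called, where 5.34% of all genes were. An unadjusted p under 0.05 was found for 4 of the 82 members and for 2775 of 15897 genes. The widest difference there was that of COX6B2, down in MCF10A and up in MCF10CA1h, at 3.84 ± 1.12 (adjusted p = 0.0574). The members called in these 3 comparisons after removal of the length trend were 8, 9 and 1, where 24.6%, 21.2% and 7.01% of all genes were.

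With METTL3 CRISPR COX7A2L was not called in any line in the fits of each line alone without a block or length correction. With the replicate letter as a block it was called lower in MCF10AT1 (-0.94 ± 0.28, adjusted p = 0.0274 by limma). Without the block it went from 5130 ± 138 (SD, n = 3) normalized counts to 4146 ± 586 in MCF10A (adjusted p = 0.303), from 4345 ± 552 to 2328 ± 702 in MCF10AT1 (adjusted p = 0.0793) and from 2050 ± 71.8 to 2153 ± 17.1 in MCF10CA1h (adjusted p = 0.646). MCF10AT1 METTL3 CRISPR thus lay near the level that both MCF10CA1h groups had.

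Genes around the members were read from lists of partners. CYC1, the cytochrome c1 of complex III, which the naming rule leaves out, was called where the members were not: it had 2268, 1652 and 1722 normalized counts in control MCF10A and 4321, 3883 and 4203 with METTL3 CRISPR, with no overlap (1.15 ± 0.16, adjusted p = 0.0143). It was also higher in control MCF10AT1 (1.75 ± 0.32, adjusted p = 0.00661) and control MCF10CA1h (1.99 ± 0.32, adjusted p = 0.0018) than in control MCF10A. Of 11 electron carriers and ATP synthase partners it was the only gene called with METTL3 CRISPR in MCF10A, where 1.16% of all genes were higher. In each of the 2 other control lines 6 of the 11 were higher than in MCF10A. Of all genes 13.3% were higher in control MCF10AT1 and 19.0% in control MCF10CA1h.

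Of 19 regulators of mitochondrial biogenesis 2 were higher with METTL3 CRISPR in MCF10A, 1 was lower in MCF10AT1 and 4 were lower in MCF10CA1h. Of all genes 1.16% were higher in MCF10A, 5.96% lower in MCF10AT1 and 4.85% lower in MCF10CA1h. The MCF10AT1 count was thus near the share of all genes. PPARGC1A, the coactivator PGC-1alpha, had 71.2, 96.3 and 32.4 normalized counts in control MCF10A and 694, 667 and 734 with METTL3 CRISPR (3.50 ± 0.37, adjusted p = 0.00803), and its relative PPARGC1B rose by 1.15 ± 0.21 (adjusted p = 0.0316). In MCF10CA1h PPARGC1A went the other way, from 247, 366 and 368 to 128, 43.3 and 110 (-1.91 ± 0.36, adjusted p = 0.00744). TFAM, which packs mitochondrial DNA and helps to start its transcription, fell there by 0.75 ± 0.13 on the log2 scale (adjusted p = 0.00434). TWNK, the helicase that acts in its replication, fell by 0.73 ± 0.10 (adjusted p = 0.00161), while PPRC1 gave -0.42 ± 0.10 (adjusted p = 0.0221). In MCF10AT1 the regulator called lower was PPARGC1B (-1.62 ± 0.44, adjusted p = 0.0477). PPARGC1A had 302, 106 and 524 in the MCF10AT1 control and 102, 19.0 and 44.3 with METTL3 CRISPR, with no overlap, and was not called.

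Of the 13 subunits encoded in mitochondrial DNA 4 were higher in control MCF10AT1 than in control MCF10A, where 13.3% of all genes were higher. The median log2 fold change was 0.50, and MT-CO2 was among the 4 (1.11 ± 0.27, adjusted p = 0.0168). In control MCF10CA1h, where 33 nuclear members were higher than in MCF10A, none of the 13 was higher and MT-ND2 was lower (-0.73 ± 0.20, adjusted p = 0.0198). Of all genes 19.0% were higher and 18.8% lower in that comparison. Against control MCF10AT1 4 of the 13 were lower in MCF10CA1h, among them MT-ND1 (-1.20 ± 0.22, adjusted p = 0.00479), where 10.8% of all genes were lower. None of the 13 was called with METTL3 CRISPR in any line. In MCF10A, MCF10AT1 and MCF10CA1h 0, 0 and 1 had an unadjusted p under 0.05, against 2839 of 15416, 4425 of 16050 and 4230 of 15127 genes. Mitochondrial RNAs lack long polyA tails, so the unsettled RNA type bears on these values.

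Other mitochondrial and ribosomal lists were also compared between control lines. In control MCF10CA1h against MCF10A, 19.0% of all genes tested were higher and 18.8% lower. There 39 of 77 tested mitochondrial ribosomal protein genes were higher and 2 lower, with a median of 0.86. Of 52 assembly factors 20 were higher and 3 lower, among them NDUFAF3 of complex I (1.81 ± 0.23, adjusted p = 0.00057) and COX14 of complex IV (1.83 ± 0.42, adjusted p = 0.00821). Of 14 TCA cycle enzymes 3 were higher, near the share of all genes, and none lower, with a median of 0.24. Of 81 cytosolic ribosomal protein genes, which are also short, 3 were higher and 1 was lower, with a median of 0.26. Both counts were below the shares of all genes. In control MCF10AT1 against MCF10A the order was different, with 13.3% of all genes higher and 14.7% lower. There 29 cytosolic ribosomal protein genes were higher and none lower, with a median of 1.01. Of the mitochondrial ribosomal protein genes 16 were higher and 1 was lower, with a median of 0.71. With METTL3 CRISPR in MCF10CA1h 3 of 82 cytosolic and 3 of 77 mitochondrial ribosomal protein genes were lower and none higher. Of all genes 4.85% were lower and 7.91% higher there, so these counts were below the share of all genes.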

How the data were processed

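RNA of 18 libraries, 3 for each of 6 groups, was sequenced, labelled polyA but described in the protocol as total RNA with ribosomal RNA depletion. Per the labels, the authors used kallisto 0.46.1, DESeq2 1.26.0 and R 4.1.1 with hg38, and by the methods summed transcripts to genes with tximport. The deposited signal is, per the labels, the DESeq2-normalized count per gene, so depth per gene is unknown. No column was left out, and 24646 rows without values were not used.

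Gene types, coordinates and transcript lengths were taken from GENCODE release 44 of the same build, promoters from RefSeq. Members and lists were chosen with earlier results of these data known. In R 4.3.3, limma 3.58.1 (lmFit, eBayes with intensity trend) was run on log2(value + 1) after dropping genes whose mean in the fit was under 10, with Benjamini-Hochberg adjustment over all genes and a two-sided threshold of 0.05. Each line was fitted alone, the 9 control libraries together, and interactions over 18 libraries. Fits were tested on simulated data. Fold changes on this scale understate changes of low genes. The length alternative subtracts from each library a lowess curve of its deviations on log2 transcript length. In Python 3.11.15, pandas 2.3.3, NumPy 2.4.6 and matplotlib 3.10.9 were used.

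The titles give each group replicates a, b and c. Deviations of same-letter libraries from their group means correlated at 0.221, 0.200 and 0.116 in MCF10A and 0.110, 0.289 and 0.477 in MCF10AT1 across 15897 genes, so the letter was taken to pair those samples. The main fits leave this pairing out, and the letter enters as a block only in alternatives. In MCF10A 7.60% of all genes were called with the block, against 1.16% higher and 1.49% lower without it. Values of the partner, regulator and mitochondrial DNA lists are given only without the block. Same-letter libraries correlated at -0.011, 0.017 and 0.046 in MCF10CA1h, which was not taken as paired. Libraries of different letters correlated at -0.17 to 0.009 in MCF10A. In MCF10AT1 control b correlated with METTL3 CRISPR a at 0.251, nearly as with b, and letter c ran against the others at -0.413 to -0.11. The pairing there thus rests mainly on letter c, and a and b are not clearly told apart.

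Named genes are the called members of a comparison if at most 20, else the 10 largest rises and falls with non-overlapping groups and a mean of at least 50, and the 5 with the smallest p where fewer than 5 were called. For interactions the 5 largest were named. SDHA to SDHD, core subunits, paralogue sets and up to 5 genes of each list were added. NDUFA13, ATP5MJ in MCF10AT1 METTL3 CRISPR and the NRF1 values were picked after values were seen. Alternatives are given in the closing section. The values of 1 member are not reported here by name.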

Additional observations from a re-analysis of the deposited data

Results flagged for a closer look

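The effect of METTL3 CRISPR on 8 member values differed between lines by an interaction term (limma, adjusted over all genes, 3 libraries per group). NDUFA4L2 differed by 5.85 (SE 1.18, adjusted p = 0.00186) in MCF10AT1 against MCF10A and by -5.34 (SE 1.18, adjusted p = 0.00441) in MCF10CA1h against MCF10AT1. Both stayed called under 26 alternatives, with sizes from 4.97 to 6.88 and from -6.36 to -4.45. ATP5MC2 differed by 1.28 (adjusted p = 0.0210) and by -1.42 (adjusted p = 0.0141) in the same comparisons. COX7A2L differed by 1.01 (adjusted p = 0.0134) in MCF10CA1h against MCF10AT1, with adjusted p between 3.5e-04 and 0.0333 over its alternatives. NDUFA5 differed by -0.96 (adjusted p = 0.0413) in MCF10AT1 against MCF10A, NDUFS7 by -1.16 (adjusted p = 0.0469) and NDUFA7 by -1.27 (adjusted p = 0.0489) in MCF10CA1h against MCF10AT1. These last 3 values lost their call under 14, 13 and 15 of 26 alternatives. Groups of 3 are too small for the outlier test used.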

How the results depend on the processing

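Of the members called, the following counts moved by over 1.5 times. METTL3 CRISPR in MCF10A: 1 with the replicate block and 0 to 4 without 1 library. METTL3 CRISPR in MCF10AT1, 1 in the report: 2 at equal sums, 20 with the replicate block, 14 in the joint fit of 18 libraries, 6 with the length trend removed, 13 with that and the replicate block, 4 without both libraries of letter c, and 1 to 5 without 1 library. METTL3 CRISPR in MCF10CA1h, 5 in the report: 2 with no intensity trend, 9 at equal sums, 0 in the joint fit (13 members and 4230 of 15127 genes had an unadjusted p under 0.05 in the fit of MCF10CA1h alone), 9 with the length trend removed, 1 at an adjusted p under 0.01, and 1 to 6 without 1 library. Control MCF10AT1 against MCF10A, 11 in the report: 27 in the joint fit, 67 without both libraries of letter c, 0 at 0.01, and 1 to 67 without 1 library. Control MCF10CA1h against MCF10A, 34 in the report: 7 at 0.01 and 8 to 36 without 1 library. Control MCF10CA1h against MCF10AT1, 4 in the report: 9 at equal sums, 2 with the replicate block, 7 in the joint fit, 31 with the length trend removed, 24 with that and the replicate block, 19 without both libraries of letter c, 1 at 0.01, and 1 to 19 without 1 library. Interaction of MCF10AT1 and MCF10A, 3 in the report: 5 at equal sums, 8 with the length trend removed with or without the replicate block, 9 without both libraries of letter c, 1 at 0.01, and 2 to 16 without 1 library. Interaction of MCF10CA1h and MCF10A, 0 in the report: 1 with a pseudocount of 5, 2 at equal sums, 1 with the length trend removed with or without the replicate block, and 0 to 1 without 1 library. Interaction of MCF10CA1h and MCF10AT1, 5 in the report: 3 with no filter, no intensity trend or equal upper quartiles, 9 with the length trend removed, 8 with that and the replicate block, 16 without both libraries of letter c, 1 at 0.01, and 3 to 25 without 1 library. The cause of these moves was not tested. Most of these counts are given without the share of all genes called in the same setting, and that share can move too. The length correction with the block and the omission of both letter c libraries were chosen after seeing the data. With the length trend removed, the median log2 fold change of control MCF10AT1 against MCF10A went from 0.74 to 0.20, a move about the size of the SD of library medians, 0.54. The other medians moved by less than their SD in the alternatives run: without 1 library they were 0.02 to 0.24, 0.05 to 0.81 and -0.20 to -0.06 for METTL3 CRISPR in MCF10A, MCF10AT1 and MCF10CA1h, and 0.38 to 1.08, 0.72 to 0.95 and -0.17 to 0.45 for the control comparisons in the order above. Over 50 named values and 1066 alternatives none reversed, 177 lost and 27 gained a call, and 862 kept their side of the threshold. The replicate block changed no other count by over 1.5 times. Normalized values with no read counts limit what can be said of low genes such as COX6B2 and NDUFA4L2, and 1 CRISPR line per group limits every comparison.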
